A study of Homo sapiens with 8 samples.

Results

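Cytochrome P450 genes were followed in A549 cells, an established epithelial line from a human lung adenocarcinoma, with and without the synthetic glucocorticoid dexamethasone. The genes were taken by name, as every symbol made of CYP, a family number, a subfamily letter and a member number, with CYP51A1 left out. This gave 51 genes of 19158 in all, from 14 families and 35 subfamilies. The labels give the genotype of all cells as WT. 4 wells received no treatment (replicates 1, 3, 4 and 5) and 4 wells received 1 µM dexamethasone for 48 h (replicates with the same numbers), with 1 library per well, all under 1 batch label. No vehicle is named for the untreated wells. Nothing in the labels says that the wells came from separate cultures or days, so p-values measure only the spread between these wells. The deposited values were read as FPKM from their size and sums, which the labels do not state; FPKM are fragments counted for a gene relative to its length and to the size of the library, so levels can be compared between genes. FPKM are printed as deposited, and fold changes on the log2 scale come after scaling between libraries. Overlap between groups was judged on the deposited FPKM, so it can differ from what the scaled values used in the tests would show.

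P450 enzymes are haem-thiolate monooxygenases that insert an oxygen atom from molecular oxygen into lipids, hormones, vitamins and foreign compounds. Most sit in the endoplasmic reticulum and take electrons from P450 oxidoreductase, whereas the mitochondrial ones take them from ferredoxin. In the lung they are known for activating inhaled pollutants and for turning over fatty acids and eicosanoids, and several are controlled by ligand-activated nuclear receptors. Glucocorticoids themselves are substrates of the CYP3A enzymes.

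The libraries carried the treatment response of their label: FKBP5, a glucocorticoid-induced co-chaperone, was at 3.28 to 7.3 FPKM in untreated wells and at 87.3 to 166 FPKM after dexamethasone. Of 8 genes listed as epithelial markers, 7 were at 1 FPKM or more in all 8 libraries and EPCAM was below 1 in all 8. The 7 were CDH1, CLDN1, KRT7, KRT8, KRT18, KRT19 and CDH2, of which CDH2 (N-cadherin) is also a mesenchymal marker. The sum of the 8 genes ran from 3504 to 5112 FPKM untreated and from 4590 to 6946 FPKM treated. No fibroblast (0 of 8), endothelial (0 of 6) or club cell marker (0 of 3) reached 1 FPKM in all libraries, and SCGB1A1, SCGB3A1 and SCGB3A2 were listed at 0 throughout. The summed fibroblast markers lay at 3.51 to 4.36 FPKM in untreated and 1.05 to 1.19 FPKM in treated wells, with COL1A2 at 0. Leukocyte markers summed to 8.03 to 9.28 and 3.6 to 4.52 FPKM, with only CD14 and CD68 at 1 FPKM or more in all libraries and PTPRC and CD3E at 0. Hepatocyte markers summed to 3.04 to 5.54 and 4.27 to 6.21 FPKM, with only APOH at 1 FPKM or more in all libraries. The part of these in the results was not tested. Untreated replicate 5 and dexamethasone replicate 5 stood apart from their groups on the second principal component, at -22.2 and -16, where the others lay between -2.8 and 12.7. Among the P450 genes that could be tested, 11 of 18 had their lowest deposited FPKM of each group in replicate 5. The share of all tested genes with this pattern is not given here. The libraries numbered 5 also had the smallest scaling factors, 0.8247 untreated and 0.9151 treated, where the others lay between 1.017 and 1.092. Values without both libraries numbered 5 are therefore given where they matter.

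Most P450 genes were silent or nearly so. Of the 51, 18 had at least 0.5 FPKM in at least 4 libraries and were tested, and 33 fell below that filter. Among the 51, the gene CYP24A1 accounted for most of what was expressed in untreated wells. The summed FPKM of all 51 genes came to 419, 405, 400 and 417 without treatment (replicates 1, 3, 4 and 5), and to 159, 145, 146 and 136 after dexamethasone. The treated wells thus lay far below the untreated ones, with no overlap. In bulk RNA, fewer cells that express a gene and less of its RNA per cell cannot be told apart. CYP24A1 made up 83.2% ± 1.4 (SD, n = 4) of the untreated sum and 51.6% ± 3.71 (SD, n = 4) of the treated sum. Without CYP24A1 the sum was 68.7 ± 5.32 FPKM untreated and 71.1 ± 9.17 FPKM treated (SD, n = 4 each), and the groups overlapped.

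**Figure D1:**
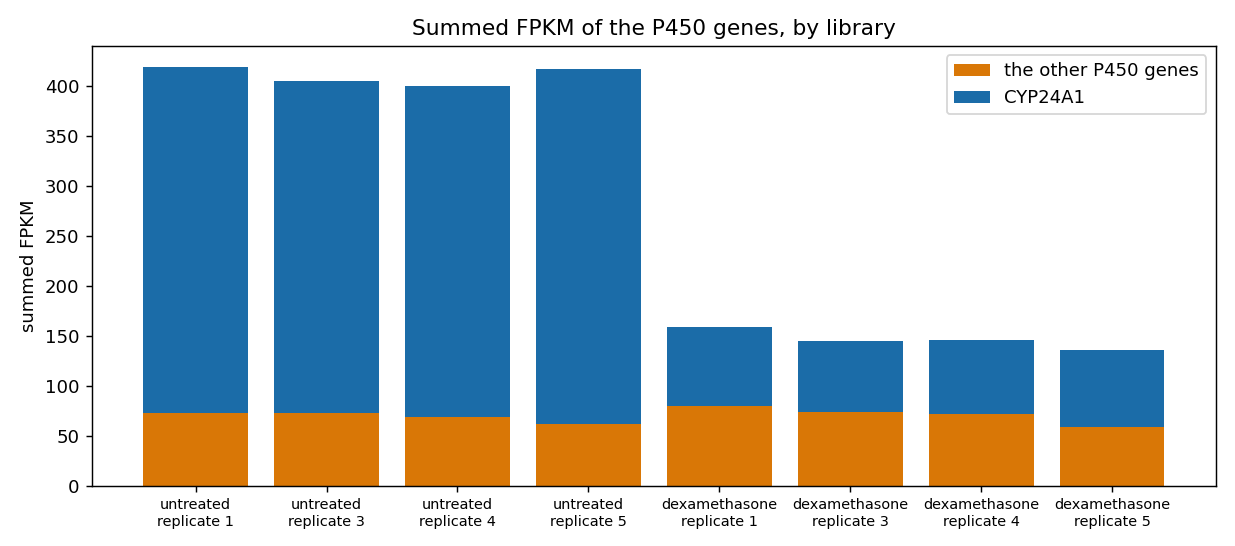
Summed FPKM (y axis, from 0) of the 51 P450 genes in each of the 8 libraries (x axis), with CYP24A1 in blue and the other genes in orange. The untreated sums run from 400 to 419 and the treated ones from 136 to 159, and the orange part stays between 58.5 and 80.2.

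The genes were tested with limma on log2(FPKM + 1), and a gene is called higher or lower at a Benjamini-Hochberg adjusted p under 0.05 over all 12161 tested genes. Of the 18 tested P450 genes, 7 were called higher and 6 lower, which is 72.2% called, while 26.7% of all tested genes were called. By direction, 38.9% of the tested P450 genes were higher and 33.3% lower, against 12.9% and 13.8% of all tested genes. CYP4B1, CYP4F22 and CYP27C1 passed the filter only through the group in which they were high, so their presence among the calls follows from the filter. Of the other 15, 10 were called, 5 higher and 5 lower, or 66.7%, and their median log2 fold change was 0.23, beside 0.02 over all tested genes. In 7 of these 15 the groups did not overlap, or 46.7%, while 31.5% of all tested genes had no overlap. Without both libraries numbered 5, 11 of the 15 had no overlap, or 73.3%, where 56.5% of all genes tested in those 6 libraries had none. Without scaling between libraries, 5 P450 genes were called higher and 6 lower, beside 1262 and 2019 of all tested genes.

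**Figure D2:**
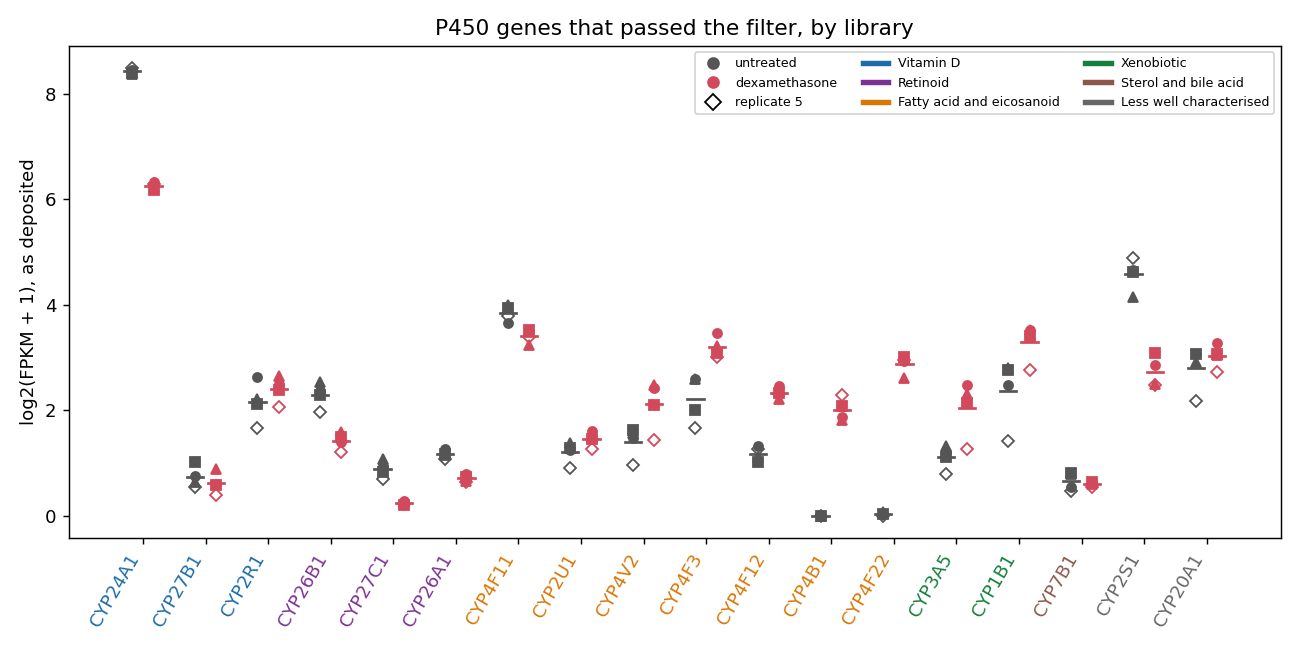
Level of each tested P450 gene as log2(FPKM + 1) (y axis), with 1 symbol per library, untreated in grey, dexamethasone in red, replicate 5 as open diamonds and group means as bars. Gene names are coloured by role. CYP24A1 lies above all others in both groups. In these values as deposited, before scaling, replicate 5 is the lowest library of both groups for 11 genes.

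CYP24A1, a vitamin D enzyme, came first by level and, on the log2(FPKM + 1) scale, by the size of the fall. CYP2R1 makes 25-hydroxyvitamin D, CYP27B1 converts it to the active hormone, and CYP24A1 is the mitochondrial hydroxylase that inactivates both and is a classical target gene of the vitamin D receptor. CYP24A1 (ENSG00000019186, chromosome 20, 54153449 to 54173973 on GRCh38, minus strand) measured 346, 333, 332 and 356 FPKM without treatment (replicates 1, 3, 4 and 5, the order used throughout) and 78.9, 71, 74 and 77.6 FPKM with it. In deposited FPKM the 4 untreated wells were close to each other, and all lay above every treated well. Its rank among all genes of a library went from between 150 and 164 to between 644 and 739. The means differed 4.53-fold, and the log2 fold change was -2.16 (SE of 0.157, adjusted p = 1.14e-05 by limma). Without scaling between libraries it was -2.17 with a smaller SE of 0.085, and without both libraries numbered 5 it was -2.11 with an SE of 0.0727. Among the 51 genes CYP24A1 was still the most abundant transcript in every treated well.

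The enzymes that build the hormone did not pass the test. CYP2R1 was at 5.18, 3.36, 3.62 and 2.17 FPKM untreated and 4.63, 4.22, 5.27 and 3.16 FPKM treated. The groups overlapped over most of their range (log2 fold change 0.25, 95% interval -0.15 to 0.65, limma adjusted p = 0.322). CYP27B1 was low, at 0.691, 1.03, 0.552 and 0.461 FPKM untreated and 0.517, 0.504, 0.854 and 0.317 FPKM treated, again with overlap. Its log2 fold change was -0.12 (95% interval -0.38 to 0.15, limma adjusted p = 0.493). In the annotation CYP27B1 overlaps METTL1 on the same strand. VDR, which encodes the vitamin D receptor, fell from 2.27 ± 0.372 to 0.823 ± 0.254 FPKM (SD, n = 4 each), which is -0.84 as a log2 difference (SE of 0.132, adjusted p = 0.00137 by limma). RXRA, which encodes its usual partner, was at 22.5 ± 0.708 and 27 ± 2.72 FPKM (SD, n = 4 each; limma adjusted p = 0.221).

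Of 4 retinoid enzymes, 3 could be tested. CYP26A1 and CYP26B1 were called lower with no overlap between groups, where 13.8% of all tested genes were called lower and 31.5% had no overlap; CYP27C1 was also lower, but it passed the filter only through its untreated values. CYP26A1, CYP26B1 and CYP26C1 hydroxylate and so clear retinoic acid, and CYP27C1 desaturates retinol. CYP26B1 (chromosome 2, 72129238 to 72148038, minus strand) was at 4.17, 3.9, 4.82 and 2.93 FPKM untreated and 1.62, 1.81, 2.02 and 1.31 FPKM treated. All treated wells were below the lowest untreated one (log2 fold change -0.87 ± 0.119 SE, adjusted p = 0.000541 by limma). CYP27C1 (chromosome 2, 127184120 to 127220078, minus strand) was at 0.91, 0.779, 1.1 and 0.611 FPKM untreated and 0.21, 0.155, 0.195 and 0.172 FPKM treated. The means differed 4.65-fold, which the log2(FPKM + 1) scale shows as only -0.63 (SE of 0.0791, adjusted p = 0.000326 by limma) because the gene is low. With a pseudocount of 0.1 its log2 fold change was -1.72.

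CYP26A1 (chromosome 10, 93073475 to 93077890, plus strand) is the retinoic-acid-inducible member of its family. It was at 1.4, 1.25, 1.21 and 1.1 FPKM untreated and 0.735, 0.672, 0.578 and 0.557 FPKM treated. The treated wells were all lower, 1.95-fold by the means (log2 fold change -0.45 ± 0.084 SE, adjusted p = 0.00335 by limma). It shares 28.8% of its 150-base windows with an overlapping annotated gene on the same strand that joins it to CYP26C1, so its value is uncertain to that extent. CYP26C1, its neighbour, stayed at 0.0762 FPKM or less in every library and was not tested. The retinoic acid receptor genes RARA, RARB and RARG were not called, with limma adjusted p = 0.891, 0.998 and 0.0797.

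The start region of CYP26A1 is shown because it holds repeated nuclear receptor half-sites, and it was chosen after its values were seen. This and the promoters below are RefSeq sequence (GRCh38.p14), from 250 bases before to 50 after an annotated start, and capitals mark matches on either strand to 5 motifs. The motifs were AGAACA (glucocorticoid receptor half-site), AGGTCA and its variant AGTTCA (half-sites of other nuclear receptors), GCGTG (core of the aryl hydrocarbon receptor element) and TGANTCA (AP-1 site). In all 35116 RefSeq promoters of this length they occurred in 14.8%, 13.8%, 10.4%, 36.5% and 7.71%, and in the promoters printed here no match overlapped another. The second CYP26A1 start (chr10:93073643-93073942, plus strand) has AGTTCA 2 times on the opposite strand, as TGAACT at -90 and -79, with 5 bases between them. Direct repeats with this spacing are the textbook arrangement of a retinoic acid response element; a match of letters is a description and not a shown binding site.
CYP26A1: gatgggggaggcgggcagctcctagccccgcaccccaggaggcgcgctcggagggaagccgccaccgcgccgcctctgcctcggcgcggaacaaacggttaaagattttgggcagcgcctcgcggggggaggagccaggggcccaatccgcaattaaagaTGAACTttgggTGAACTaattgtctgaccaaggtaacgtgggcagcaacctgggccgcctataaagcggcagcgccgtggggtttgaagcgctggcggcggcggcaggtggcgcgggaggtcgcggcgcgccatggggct

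Of 11 fatty acid and eicosanoid enzymes 7 were tested. CYP4F22 and CYP4B1 went from next to nothing to several FPKM, and passed the filter only through their treated values. Of the other 5, CYP4F3, CYP4F12 and CYP4V2 were higher, CYP4F11 was lower and CYP2U1 was not called, with a median log2 fold change of 0.71; of all tested genes, 12.9% were called higher. CYP4F22 makes the ultra-long omega-hydroxy fatty acids of skin-barrier ceramides, and its loss causes ichthyosis. CYP4F22 (ENSG00000171954, chromosome 19, 15508493 to 15552317, plus strand) was at 0.0299, 0.0295, 0.0498 and 0 FPKM untreated and 6.68, 7.07, 5.12 and 6.69 FPKM treated. All 4 treated wells were high and close together, and the fold change was the largest of the 18 on the log2(FPKM + 1) scale, at 2.84 (SE of 0.121, adjusted p = 3.24e-07 by limma). The gene overlaps another annotated gene on the opposite strand, and whether the counting used strand is not stated.

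CYP4B1, grouped here with the fatty acid enzymes, was the other gene that passed the filter only through its treated values. CYP4B1 (ENSG00000142973, chromosome 1, 46757838 to 46819413, plus strand) had a listed value of 0 in each of the 4 untreated wells and measured 2.67, 3.21, 2.5 and 3.89 FPKM after treatment. No fold can be given against a group listed at 0. Its fitted log2 fold change of 2.02 (SE of 0.133, adjusted p = 8.05e-06 by limma) depends on the pseudocount and was 4.97 with a pseudocount of 0.1. The neighbouring CYP4A11 was listed at 0 in all 8 libraries, and CYP4X1 was listed at 0 in all untreated and at 0.0149 to 0.0337 FPKM in treated libraries.

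The other rises were smaller. CYP4F12, which hydroxylates fatty acids and some antihistamines, was at 1.5, 1.03, 1.16 and 1.4 FPKM untreated and 4.48, 4.04, 3.61 and 3.95 FPKM treated (log2 fold change 1.14 ± 0.135 SE, adjusted p = 0.000233 by limma). CYP4F3, the leukotriene B4 omega-hydroxylase, was at 5.05, 3, 4.99 and 2.15 FPKM untreated and 10.1, 7.51, 8.33 and 7.01 FPKM treated (log2 fold change 1.00 ± 0.19 SE, adjusted p = 0.00402 by limma). Neither gene had overlapping groups, though the untreated wells of CYP4F3 spread more than 2-fold. CYP4V2, a fatty acid hydroxylase mutated in Bietti crystalline dystrophy, was at 1.76, 2.07, 1.98 and 0.943 FPKM untreated and 4.37, 3.27, 4.59 and 1.7 FPKM treated. Dexamethasone replicate 5 lay within the untreated range (log2 fold change 0.71 ± 0.209 SE, adjusted p = 0.0313 by limma). The call was lost without untreated replicate 1 or 4 or dexamethasone replicate 1, 3 or 4 (limma adjusted p = 0.052 to 0.0922) and without scaling between libraries (0.0726). Without both libraries numbered 5 the groups separated and the log2 fold change was 0.82 (limma adjusted p = 0.0011).

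CYP4F11, which omega-hydroxylates fatty acids and vitamin K, went the other way. It was at 11.6, 14.4, 14.9 and 12.8 FPKM untreated and 10.3, 10.5, 8.41 and 9.45 FPKM treated. The treated wells were lower without overlap, but the difference was small, at 1.39-fold by the means (log2 fold change -0.43 ± 0.135 SE, adjusted p = 0.0409 by limma). The call was lost without untreated replicate 3 or 4 or dexamethasone replicate 1, 3 or 4, with limma adjusted p between 0.0744 and 0.129. CYP2U1, which acts on long-chain fatty acids, was at 1.38, 1.43, 1.6 and 0.875 FPKM untreated and 2.03, 1.73, 1.81 and 1.41 FPKM treated. Dexamethasone replicate 5 was inside the untreated range in deposited FPKM, and the gene was not called (log2 fold change 0.26, 95% interval 0.03 to 0.48, limma adjusted p = 0.0897).

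The promoters of CYP4F22, CYP4B1 and CYP4F3 are shown as those of the 3 fatty acid genes with the largest changes on the log2(FPKM + 1) scale for which RefSeq gives an entry. CYP4F22 (chr19:15508275-15508574, plus strand) has an AGAACA match at -137, read as TGTTCT, and a GCGTG match at -150. CYP4B1 (chr1:46798796-46799095, plus strand) has 1 match, AGGTCA at 1, and CYP4F3 (chr19:15641062-15641361, plus strand) has an AP-1 match at -165 and an AGAACA match at -6. CYP4F12 had no entry. Among the called P450 genes 10 of 13 had an entry, and AGAACA occurred in 4 of them: CYP3A5, CYP4F22, CYP4F3 and CYP4V2. Of all RefSeq promoters of this length 14.8% held AGAACA, but that share counts promoters and not genes. CYP26A1, CYP27C1 and CYP4F11 have more than 1 promoter entry. P450 genes that were not called are not given for comparison, and a link between the motif and the direction of change was not tested.
CYP4F22: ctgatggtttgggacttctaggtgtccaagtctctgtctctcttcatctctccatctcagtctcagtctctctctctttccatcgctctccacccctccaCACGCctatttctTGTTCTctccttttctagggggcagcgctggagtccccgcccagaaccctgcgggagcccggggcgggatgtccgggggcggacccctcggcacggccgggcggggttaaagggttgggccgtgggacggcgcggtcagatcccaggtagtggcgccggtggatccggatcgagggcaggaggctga
CYP4B1: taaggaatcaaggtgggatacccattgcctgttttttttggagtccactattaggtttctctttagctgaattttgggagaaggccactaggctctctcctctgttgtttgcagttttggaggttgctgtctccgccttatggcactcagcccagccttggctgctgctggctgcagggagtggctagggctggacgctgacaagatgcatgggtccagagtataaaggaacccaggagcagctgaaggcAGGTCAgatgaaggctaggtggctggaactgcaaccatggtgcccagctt
CYP4F3: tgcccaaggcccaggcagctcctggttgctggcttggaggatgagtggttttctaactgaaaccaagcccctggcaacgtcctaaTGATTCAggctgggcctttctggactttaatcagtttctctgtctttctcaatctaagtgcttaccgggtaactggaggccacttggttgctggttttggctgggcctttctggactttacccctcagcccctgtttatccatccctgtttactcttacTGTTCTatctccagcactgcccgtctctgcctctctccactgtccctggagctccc

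Xenobiotic enzymes were mostly silent. The 2 that could be tested, CYP1B1 and CYP3A5, were called higher, where 12.9% of all tested genes were. Their groups overlapped in the deposited FPKM, before the scaling used in the test, and both calls were lost under some other processing. The xenobiotic genes numbered 17 of the 51, and the remaining 15 were below the filter. CYP1B1 oxidises polycyclic aromatic hydrocarbons and oestrogens and is the textbook target of the aryl hydrocarbon receptor outside the liver. CYP1B1 (chromosome 2, 38066973 to 38109902, minus strand) was at 4.59, 5.77, 5.92 and 1.68 FPKM untreated and 10.5, 9.54, 10.5 and 5.76 FPKM treated. In both groups replicate 5 was well below the rest, and dexamethasone replicate 5 lay within the untreated range (log2 fold change 0.96 ± 0.254 SE, adjusted p = 0.0211 by limma). Without both libraries numbered 5 there was no overlap, and the log2 fold change was 0.85 (SE of 0.0981, adjusted p = 0.000391 by limma). The call was lost without dexamethasone replicate 1, 3 or 4 (limma adjusted p = 0.0576 to 0.0631) and without scaling between libraries (0.0624). CYP1B1 overlaps RMDN2-AS1 on its own strand and CYP1B1-AS1 and RMDN2 on the opposite one, and reads of these cannot be separated if the counting ignored strand.

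CYP3A5 is the main CYP3A enzyme of lung and takes steroids and many drugs as substrates. CYP3A5 (chromosome 7, 99648194 to 99680026, minus strand) was at 1.32, 1.17, 1.49 and 0.741 FPKM untreated and 4.59, 3.38, 3.98 and 1.41 FPKM treated. In deposited FPKM, 3 treated wells stood clearly above all untreated ones, and dexamethasone replicate 5 fell among the untreated wells (log2 fold change 0.94 ± 0.22 SE, adjusted p = 0.0115 by limma). Without both libraries numbered 5 the groups did not overlap, and the log2 fold change was 1.13 (SE of 0.113, adjusted p = 0.000189 by limma). With each library's trend with GC content removed the difference was 0.56 (adjusted p = 0.0248 by limma), and with a replicate block added to that the call was lost (adjusted p = 0.0532 by limma). The other CYP3A genes stayed low. CYP3A4, the main hepatic drug oxidase, was listed at 0 in every untreated library and read 0, 0, 0.0162 and 0.0311 FPKM after treatment, CYP3A43 reached at most 0.0537 FPKM, and the fetal form CYP3A7 reached at most 0.196 FPKM. NR1I2 and NR1I3, which encode the xenobiotic receptors PXR and CAR that induce CYP3A and CYP2B genes, reached at most 0.00895 and 0.143 FPKM.

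The promoter of CYP3A5 (chr7:99679947-99680246, minus strand) is shown because it held the most half-site matches of those printed by size of change. AGAACA lies at -119 and is followed, with 0 bases between them, by TGAACT at -113, and AGGTCA lies at -101.
CYP3A5: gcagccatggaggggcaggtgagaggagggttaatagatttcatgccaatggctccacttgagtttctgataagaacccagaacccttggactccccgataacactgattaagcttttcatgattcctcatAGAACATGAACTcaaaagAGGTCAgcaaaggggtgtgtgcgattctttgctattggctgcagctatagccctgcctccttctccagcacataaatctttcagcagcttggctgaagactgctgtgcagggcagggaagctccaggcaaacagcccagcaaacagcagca

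CYP1A1, which oxidises polycyclic hydrocarbons, was below the filter, with only dexamethasone replicate 1 above 0.5 FPKM. It was at 0.177, 0.177, 0.301 and 0.34 FPKM untreated and 0.502, 0.314, 0.253 and 0.389 FPKM treated, with overlapping groups. CYP1A2, its neighbour and the main caffeine oxidase, was listed at 0 in all 8 libraries. Of the aryl hydrocarbon receptor genes, AHR was at 6.58 ± 2.92 and 9.32 ± 2.19 FPKM (SD, n = 4 each; limma adjusted p = 0.157) and ARNT was not called (limma adjusted p = 0.177). TIPARP, a target and repressor of this receptor, rose from 13.6 ± 4.66 to 35.8 ± 5.98 FPKM (log2 fold change 1.40 ± 0.199 SE, adjusted p = 0.000738 by limma). AHRR, another repressor, was not called (limma adjusted p = 0.429).

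Enzymes with less settled substrates included CYP2S1, an epithelial P450 of airway and skin known to be inducible by dioxin. CYP2S1 (ENSG00000167600, chromosome 19, 41193049 to 41207539, plus strand) was the second most abundant member in untreated cells, at 24.4, 23.6, 16.8 and 28.6 FPKM. After dexamethasone it was at 6.28, 7.45, 4.67 and 4.54 FPKM. The lowest untreated well was still above the highest treated well, the means differed 4.07-fold, and the log2 fold change was -1.85 (SE of 0.232, adjusted p = 0.000369 by limma). CYP20A1, an orphan enzyme, was at 7.32, 7.42, 6.56 and 3.51 FPKM untreated and 8.65, 7.36, 7.29 and 5.65 FPKM treated, with overlap (log2 fold change 0.23, 95% interval -0.13 to 0.60, limma adjusted p = 0.309). The promoter of CYP2S1 (chr19:41192969-41193268, plus strand) is shown as that of the member with the largest fall on the log2(FPKM + 1) scale for which RefSeq gives an entry, and it holds 1 match, AGGTCA read as TGACCT at -181.
CYP2S1: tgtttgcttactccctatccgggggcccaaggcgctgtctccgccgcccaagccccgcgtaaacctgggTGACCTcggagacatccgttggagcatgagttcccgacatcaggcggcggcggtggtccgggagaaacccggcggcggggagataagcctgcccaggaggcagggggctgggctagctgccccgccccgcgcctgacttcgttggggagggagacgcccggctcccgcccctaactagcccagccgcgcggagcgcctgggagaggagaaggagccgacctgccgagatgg

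Among the 51 genes, those for sterol, bile acid and steroid hormone enzymes were close to absent. The sterol enzyme CYP51A1 was left out by the choice of genes and not for its level, which is given at the end. CYP7B1, which 7-alpha-hydroxylates oxysterols, was the only 1 of 5 sterol genes tested, at 0.465, 0.75, 0.732 and 0.39 FPKM untreated and 0.554, 0.56, 0.513 and 0.46 FPKM treated. The treated values lay inside the untreated range (log2 fold change -0.04, 95% interval -0.23 to 0.14, limma adjusted p = 0.722). CYP39A1, an oxysterol hydroxylase, reached at most 0.461 FPKM, and CYP46A1, the cholesterol 24-hydroxylase of brain, at most 0.106 FPKM. CYP27A1, the mitochondrial sterol 27-hydroxylase, read 0.322 FPKM in 1 untreated well (replicate 4) and no more than 0.0415 FPKM elsewhere. CYP7A1, the rate-limiting enzyme of bile acid synthesis, was listed at 0 throughout. Of 5 steroid hormone genes, CYP11B1 and CYP11B2, which make cortisol and aldosterone, were listed at 0 in all 8 libraries. CYP11A1, which starts steroid synthesis, CYP19A1 (aromatase) and CYP21A2 reached at most 0.0199, 0.00871 and 0.0321 FPKM.

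The silent members were as follows. In all 8 libraries 7 genes were at 0: CYP1A2, CYP2A13, CYP4A11, CYP4F8, CYP7A1, CYP11B1 and CYP11B2. A further 17 were above 0 somewhere but under 0.1 FPKM in every library. Of the xenobiotic enzymes among them, the highest values were 0.0229 FPKM for CYP2A6, 0.0124 for CYP2B6, 0.0357 for CYP2C8, 0.0781 for CYP2C18, 0.0307 for CYP2C19, 0.0678 for CYP2E1, 0.0311 for CYP3A4 and 0.0537 for CYP3A43. CYP2F1, known as an airway enzyme like the silent CYP2A13, reached 0.0183 FPKM. The others were CYP2A7 (0.00617), CYP2W1 (0.0991), CYP4F2 (0.0168), CYP4X1 (0.0337) and CYP26C1 (0.0762), besides CYP11A1, CYP19A1 and CYP21A2 given above. Another 8 had their highest value between 0.1 and 0.5 FPKM: CYP2D6 at 0.193, CYP2D7 at 0.157 and CYP2J2, an arachidonic acid epoxygenase, at 0.184, besides CYP3A7, CYP27A1, CYP39A1, CYP46A1 and 1 gene not reported here. CYP1A1, at 0.502 FPKM in 1 library, completes the 33. CYP2D6 and CYP2D7 share 523 windows of 150 bases with each other, so the assignment of their reads is uncertain. The same limit holds for other low members that share windows with annotated genes. These were CYP3A7 (52.2% of its windows), CYP2C18 (36.2%), CYP2C19 (33.0%), CYP21A2 (15.2%) and CYP26C1 (12.8%). A value of 0 was printed as listed, since neither the depth nor whole reads could be recovered from the values.

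**Figure D3:**
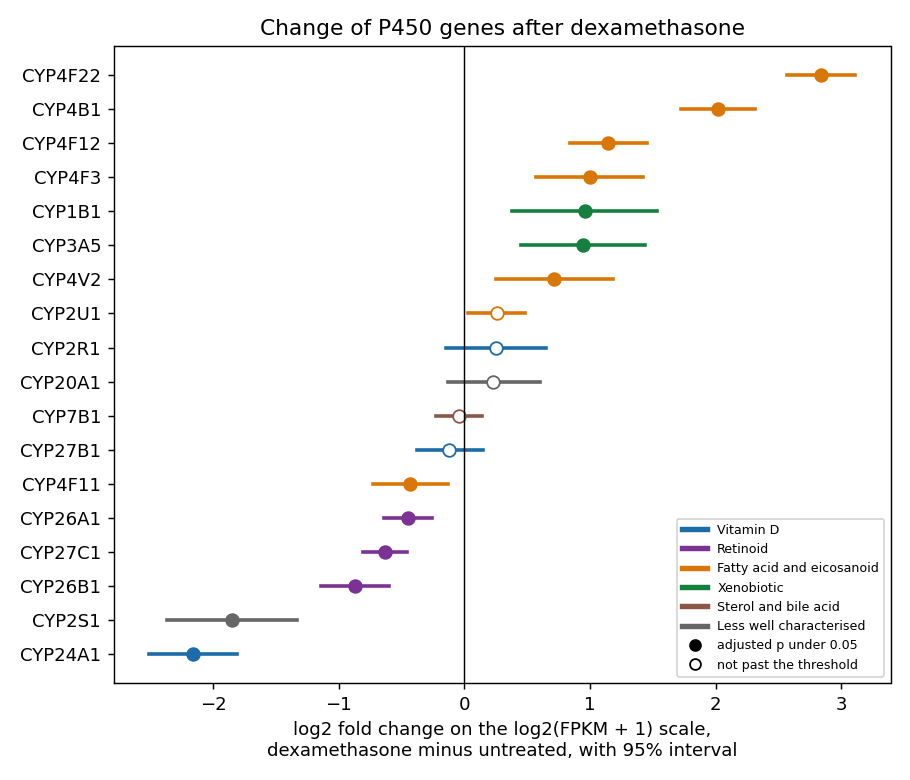
Change of log2(FPKM + 1) (x axis, dexamethasone minus untreated) of the 18 tested P450 genes (y axis), with 95% intervals as lines and colours for roles. Filled points are past an adjusted p of 0.05; the changes run from -2.16 for CYP24A1 to 2.84 for CYP4F22.

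Ordered by level among the 51 genes, the untreated cells had CYP24A1 (342 ± 11.3 FPKM), CYP2S1 (23.3 ± 4.92) and CYP4F11 (13.4 ± 1.51) at the top (SD, n = 4 each). These 3 did not overlap. CYP20A1 (6.2 ± 1.84), CYP1B1 (4.49 ± 1.97), CYP26B1 (3.96 ± 0.785), CYP4F3 (3.8 ± 1.45) and CYP2R1 (3.58 ± 1.24) followed, each overlapping its neighbour in the order (SD, n = 4 each). After dexamethasone CYP24A1 still led at 75.3 ± 3.59 FPKM. CYP4F11 (9.67 ± 0.952), CYP1B1 (9.08 ± 2.26), CYP4F3 (8.23 ± 1.34), CYP20A1 (7.24 ± 1.23), CYP4F22 (6.39 ± 0.865) and CYP2S1 (5.74 ± 1.39) came next and overlapped from one to the next (SD, n = 4 each). CYP2S1 thus went from the second place to the seventh, and CYP4F22 from near 0 to the sixth.

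Many P450 genes lie side by side as products of gene duplication. By distance alone, with neighbours less than 500 kb apart, 32 of the 51 fell into 9 clusters, and 8 of these 32 were tested. A cluster formed this way need not hold close relatives, such as that of CYP11A1, CYP1A1 and CYP1A2. In the CYP4F cluster on chromosome 19 (15508493 to 15934867), 6 genes lie in the order CYP4F22, CYP4F8, CYP4F3, CYP4F12, CYP4F2 and CYP4F11. CYP4F22, CYP4F3 and CYP4F12 on the plus strand were higher and CYP4F11 on the minus strand was lower, while CYP4F8 was listed at 0 in all libraries and CYP4F2 reached at most 0.0168 FPKM. In the second cluster of chromosome 19 (40843538 to 41207539), CYP2S1 at the end was the only one of 6 genes above 0.0229 FPKM. In the CYP3A cluster only CYP3A5 was tested, and in the cluster on chromosome 1 only CYP4B1. Members of a cluster can resemble each other in sequence. Of the 18 tested genes, 15 shared no 150-base window with an annotated transcript of another gene. CYP4F3 and CYP4V2 shared 0.5% and 0.6%, and CYP26A1 shared the 28.8% given above.

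**Figure D4:**
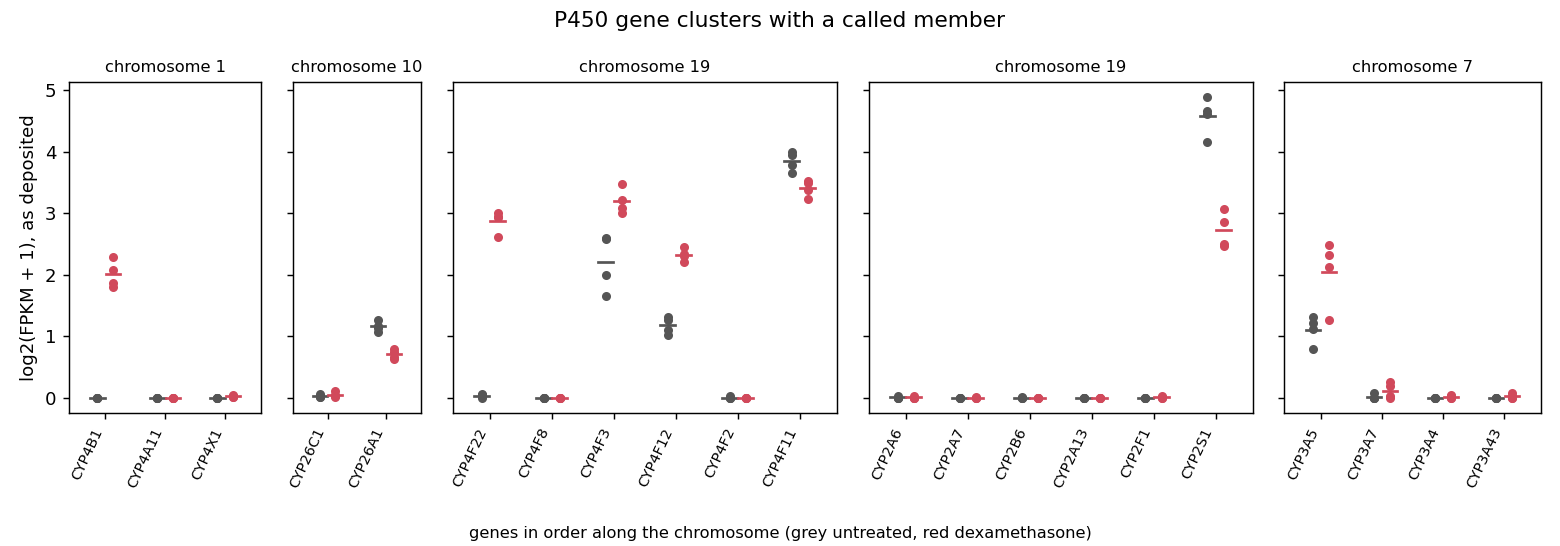
Level as log2(FPKM + 1) (y axis) of the genes of the 5 P450 clusters that hold a called gene, in their order along each chromosome (x axis, not to distance), with 1 point per library, untreated grey and dexamethasone red, and bars for group means. Silent genes such as CYP4F8 and CYP2A13 sit at 0 beside neighbours such as CYP4F3 and CYP2S1.

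The partners that P450 enzymes need were all expressed. Of 22 genes for electron donors and for haem synthesis and breakdown, 22 were tested, and 6 were higher and 2 lower, or 36.4% called, beside 26.7% of all tested genes. POR, the electron donor of the microsomal enzymes, was at 70.4 ± 10.9 and 64.5 ± 8.18 FPKM (SD, n = 4 each) and was not called (log2 fold change -0.12, 95% interval -0.59 to 0.36, limma adjusted p = 0.706). Cytochrome b5 (CYB5A), which supports many P450 reactions, rose from 7.85 ± 0.619 to 16.4 ± 2.99 FPKM (log2 fold change 0.97 ± 0.139 SE, adjusted p = 0.000732 by limma). FDX1, the ferredoxin that serves the mitochondrial enzymes such as CYP24A1, rose from 4.38 ± 0.998 to 6.88 ± 0.813 FPKM (limma adjusted p = 0.00684). The cytochrome b5 reductases CYB5R1 and CYB5R3 were also higher, at limma adjusted p = 0.0297 and 0.0483.

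The haem genes did not move one way. ALAS1, the rate-limiting enzyme of haem synthesis, was at 27.5 ± 0.633 and 20.7 ± 1.79 FPKM (SD, n = 4 each) and missed the threshold (log2 fold change -0.39, 95% interval -0.73 to -0.06, limma adjusted p = 0.0825). ALAD, the next enzyme, rose from 6.09 ± 1.05 to 9.41 ± 0.978 FPKM (limma adjusted p = 0.00594). HMOX1, which degrades haem, fell from 112 ± 14.8 to 61.3 ± 10.9 FPKM (log2 fold change -0.86 ± 0.221 SE, adjusted p = 0.0174 by limma), and BLVRA, the biliverdin reductase downstream of it, rose from 36 ± 2.55 to 48.3 ± 2.11 FPKM (limma adjusted p = 0.0277). The count of called genes on this list ran from 3 to 9 when single libraries were left out. It was 3 without dexamethasone replicate 4, 4 without untreated replicate 1 or dexamethasone replicate 3, and 5 without untreated replicate 3 or 4 or dexamethasone replicate 1. In these 6 fits 18.8% to 24% of all tested genes were called.

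Of 31 genes for regulators of P450 genes, most of them transcription factors, 25 were tested, and 2 were higher and 3 lower. That is 20% called, beside 26.7% of all tested genes. Apart from VDR and TIPARP, ARNT2, a partner of the aryl hydrocarbon receptor class, fell from 14.3 ± 1.28 to 7.79 ± 0.302 FPKM (limma adjusted p = 0.000927). NR1H4, the bile acid receptor, rose from 0.102 ± 0.019 to 1.17 ± 0.247 FPKM (SD, n = 4 each), 11.5-fold by the means (log2 fold change 0.97 ± 0.0845 SE, adjusted p = 3.27e-05 by limma). NR1H4 passed the filter only through its treated values, so its presence among the calls follows from the filter. RXRG was listed at 0 in all 8 libraries. The count on this list was 5, and it was 8 without untreated replicate 5 or without dexamethasone replicate 5, and 11 without both. The calls over all tested genes rose in the same fits, to 31.4%, 29.7% and 45% of them.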

How the data were processed

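RNA was measured in 8 libraries from total RNA depleted of ribosomal RNA. Per the submitters' processing notes, reads were checked with FastQC 0.11.9, trimmed with Cutadapt 3.4, aligned to GRCh38 with STAR 2.7.9a and quantified with featureCounts (Subread 2.0.3); DESeq2 1.32.0 is also named there and its results were not used here. The deposited values are described as counts but are not whole numbers, and were read as FPKM from their size and sums (338989 to 373855 per library). The step that made them, the gene models and strand use are not given in the sources used here. Steps between low values fitted both 24550000 to 28920000 and 49710000 to 57010000 fragments per library, with 37.4% to 45.3% of these values within 0.1 of a whole number, so depth was not settled, no count test was run, and no counting interval is given. At least 1 expressed gene was listed at 0 in a single library, so a 0 can be a failed estimate.

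Scaling used a trimmed mean of each library's log ratios to the average library, on genes above 0 in all 8 (trim 0.3 of M values and 0.05 of A values per side). Genes that reached an FPKM of 0.5 in 4 or more libraries were tested on log2(FPKM + 1) with limma 3.58.1 in R 4.3.3 (lmFit, eBayes with trend and robust, group only, two-sided), and p-values were adjusted by Benjamini-Hochberg over all 12161 genes. Fold changes on this scale understate low genes. The fit was tested on simulated data with known changes. All 51 members were found in GENCODE v44, which supplied strand, overlaps, GC content and transcripts; coordinates are printed as deposited. Windows of 150 bases come from the longest transcript of each gene. RefSeq promoters were matched by symbol, for 36 members outside chromosome 8. The members, the role groups and the other lists were chosen with earlier results of these data known. Some genes are counted but not reported by name here. Named genes were the other P450 genes, and of the other lists the called genes and the 4 with the smallest p; RXRA, AHR, ARNT, AHRR, RARA, RARB, RARG, POR, ALAS1, NR1I2, NR1I3 and RXRG were added for their roles. Alternatives were another pseudocount, 2 other filters, 2 other scalings, a replicate block, removal of the GC trend, and leaving out libraries.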

Additional observations from a re-analysis of the deposited data

Results flagged for a closer look

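In each group of 4 libraries, a library was marked where its gap to the nearest other one, as a share of the group's range, passed Dixon's 95% critical value. This was examined for 57 groups of values, from the tested P450 genes and the called partner and regulator genes reported here, and occurred in 3; chance gives about 1 in 20. None of the 3 was a P450 gene. ALAD was at 10.9 FPKM in dexamethasone replicate 1, where the other treated wells lay between 8.87 and 8.98. FDX1 was at 5.67 FPKM in dexamethasone replicate 5, where the others lay between 7.18 and 7.44. CYB5R3 was at 25.4 FPKM in untreated replicate 5, where the others lay between 18.6 and 19.7. 2 of the 3 were libraries numbered 5.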

How the results depend on the processing

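Of the 13 called P450 genes, 9 kept their call and direction in every alternative that could test them: CYP24A1, CYP26A1, CYP26B1, CYP27C1, CYP2S1, CYP4B1, CYP4F12, CYP4F22 and CYP4F3. With an FPKM minimum of 1, CYP27C1 was not tested. CYP4B1, CYP4F22 and CYP27C1 passed the main filter only through the group in which they were high, so their kept calls are no separate support. The share of all called genes that kept their call is not given here. CYP1B1, CYP3A5, CYP4F11 and CYP4V2 lost theirs somewhere. Of 303 values for single genes, 281 stayed on their side, 16 lost and 2 gained the threshold, and 4 changed sign, none of them called: with the GC trend removed CYP2R1 was at -0.003 and CYP27B1 at 0.05, with and without the replicate block. Without single libraries 5 to 7 P450 genes were higher and 5 to 6 lower, 4 to 8 regulator and 3 to 9 partner genes were called, and 1088 to 1842 of all genes were higher and 1218 to 2009 lower; without both libraries numbered 5 these were 2718 and 2794 for all genes and 11 for the regulators. With the GC trend removed 8 regulator genes were called. Causes of these shifts were not tested.

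Same-numbered wells are not said to share anything, so the numbers were not taken to pair the wells. Deviations from the group means correlated at 0.292, 0.067, 0.315 and 0.713 for numbers 1, 3, 4 and 5. Dexamethasone replicates 3, 4 and 5 correlated best with their own number. Dexamethasone replicate 1 correlated more with untreated replicates 3 and 4 (0.435 and 0.424). Whether same-numbered wells share a factor was not tested. With the replicate block 8 P450 genes were higher, CYP2U1 being added (limma adjusted p = 0.0485), and 6 lower, with 2994 and 2771 of all genes and 12 regulator genes called. With the replicate block and the GC trend removed, 2556 and 2794 of all genes and 9 regulator genes were called, CYP3A5 lost its call (0.56, limma adjusted p = 0.0532) and CYP7B1 gained one (-0.41, limma adjusted p = 0.00928). With so few libraries, small changes of genes under 1 FPKM are the hardest to see.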

Other observations

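P450 enzymes whose symbols do not follow the CYP pattern, and CYP51A1, were read for comparison. TBXAS1, thromboxane synthase, measured 8.31, 8.95, 8.43 and 8.19 FPKM without treatment (replicates 1, 3, 4 and 5) and 4.7, 6.23, 5.16 and 5.25 FPKM after dexamethasone. All treated wells were lower (log2 fold change -0.58 ± 0.133 SE, adjusted p = 0.0102 by limma). PTGIS, prostacyclin synthase, reached at most 0.0377 FPKM in any library. CYP51A1, the sterol demethylase of cholesterol synthesis, was at 48 ± 12.1 FPKM untreated and 66.7 ± 10.9 FPKM treated (SD, n = 4 each). Its groups overlapped, with a difference of 0.50 in log2 (SE of 0.155, adjusted p = 0.04 by limma). In dexamethasone replicates 3 and 4 CYP51A1 was at 73.6 and 75.2 FPKM, above CYP24A1 at 71 and 74. In dexamethasone replicates 1 and 5 it was at 66.3 and 51.4 FPKM, below CYP24A1 at 78.9 and 77.6.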
